A study of Mus musculus with 6 samples.

Results

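Serum amyloid A and the other major acute-phase proteins were examined in liver transcriptomes of acute ethanol-exposed and control mice. The group holds 10 genes, Saa1, Saa2, Saa3, Saa4, Lcn2, Hp, Hpx, Lrg1, Cp and Apcs, which were taken by gene name from the 28880 genes of the deposited table, and each name occurred once. Bulk RNA sequencing had been performed on livers of male wild-type C57BL/6J mice aged 6 to 8 weeks, with 3 libraries from the acute ethanol group and 3 from the control group. Ethanol-exposed mice went without food for 12 h, were then gavaged once with 50% ethanol (by volume, 6 g/kg), and were sampled 24 h later, whereas control mice received no ethanol. Fasting, a vehicle gavage and sampling times of the control mice were not given in the sources used here, so ethanol, gavage and fasting cannot be told apart in the comparison. All libraries carry the same batch label. The comparison asks how far the acute-phase output of the liver differed after ethanol, and how evenly it differed among the 3 ethanol-exposed libraries.

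The acute-phase response is the change in secreted liver proteins that follows infection, tissue injury or other inflammatory stimuli. Interleukin-6 and interleukin-1 act on hepatocytes through STAT3, C/EBP and NF-kB transcription factors, and raise transcripts of serum amyloid A, haptoglobin and other plasma proteins while those of albumin and other negative acute-phase proteins typically fall. In the mouse, SAA1 and SAA2 are the classical inducible circulating forms, SAA3 is also made by macrophages and adipocytes, and SAA4 is regarded as constitutive.

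In these livers, 5 of the 10 genes were upregulated DEGs after ethanol (Saa3, Lcn2, Hp, Hpx and Lrg1) and 0 were downregulated DEGs, where a DEG has an adjusted p below 0.05 and a log2 fold change beyond 1 in edgeR's quasi-likelihood test over all 16717 genes tested. Over all genes tested, 10.4% were upregulated and 13.8% downregulated DEGs. The median log2 fold change of the 10 genes was 2.37, against -0.04 over all genes tested. All 10 genes passed the filter on low counts. CPM values of the ethanol-exposed mice lay above those of all control mice for 6 of the 10 genes, and the same held for 28.0% of all genes tested, while the reverse held for 0 of the 10 and for 31.0% of all genes tested. By FPKM, a comparison chosen after seeing the data, the ethanol-exposed mice lay above all controls for 4 of the 10 genes (Saa3, Lcn2, Hp and Lrg1) and 9.45% of all genes tested, and below them for 2 (Saa4 and Cp) and 57.4%. Ethanol replicate 3 had the highest TMM-scaled CPM of all 6 libraries for 9 of the 10 genes, Cp being the exception, and for 21.9% of all genes tested, and it had the highest FPKM for 7 of the 10 genes, which leaves out Saa4, Apcs and Cp, and for 9.01% of all genes tested. Without ethanol replicate 3, the upregulated DEGs were Saa3, Lcn2, Hp and Lrg1 (4 genes, against 10.9% of all genes), Apcs became a downregulated DEG (1 gene, against 16.5%), and the median log2 fold change was 0.96, against -0.08 over all genes. When control replicate 1 was left out, 2 genes (Saa3 and Lrg1) remained upregulated DEGs, against 8.79% of all genes, and when control replicate 2 or 3 was left out 1 gene did (Lrg1), a share of the 10 near the 8.57% and 8.61% of all genes.

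Total counts per library ran from 60514417 to 74210869, and Saa3, with 94 to 626 counts, had the fewest counts of the 10 genes. Levels are given as CPM, counts scaled by library size and edgeR's TMM factors (0.768 to 0.836 for ethanol, 1.26 to 1.27 for control), for comparisons of a gene between libraries, and as FPKM, fragments scaled to gene length and library size, for comparisons between genes. The choice of scaling moves every change, and with library size alone the middle gene of all those tested had a log2 fold change of -0.71, 5.06% of genes were upregulated and 32.2% downregulated DEGs, and of the 10 genes 5 (Saa2, Saa3, Lcn2, Hp and Lrg1) and 1 (Apcs) were. The groups also stood apart in each library's makeup. Mitochondrial genes took 8.50% to 9.26% of counts in ethanol-exposed and 5.45% to 7.40% in control livers, the most abundant genes took a larger share of counts in every ethanol-exposed than in any control liver, and 19695 to 19881 and 21008 to 21619 genes were detected. The part of these differences in the results was not tested. Hepatocyte markers, including albumin, summed to between 179737 and 191832 CPM in ethanol-exposed and between 104835 and 118087 CPM in control livers. Of 16 such markers 4 were upregulated DEGs (25.0%, against 10.4% of all genes tested), with a median log2 fold change of 0.66. With library size alone 1 was (6.25%, near the 5.06% of all genes), with a median of -0.01. These markers share Alb, Apoa1, Ttr and Trf with the negative acute-phase genes below, and Serpina1a and Hnf4a with other lists. Tat, also a marker, belongs to the study's signature, which was chosen with data that include these samples. The marker count is therefore not independent of those lists or of the signature. In bulk tissue, a change in the number of cells of a type and a change in RNA per cell cannot be told apart. The labels number the replicates without saying how each was obtained, so the p-values measure the spread between these 6 samples.

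**Figure D1:**
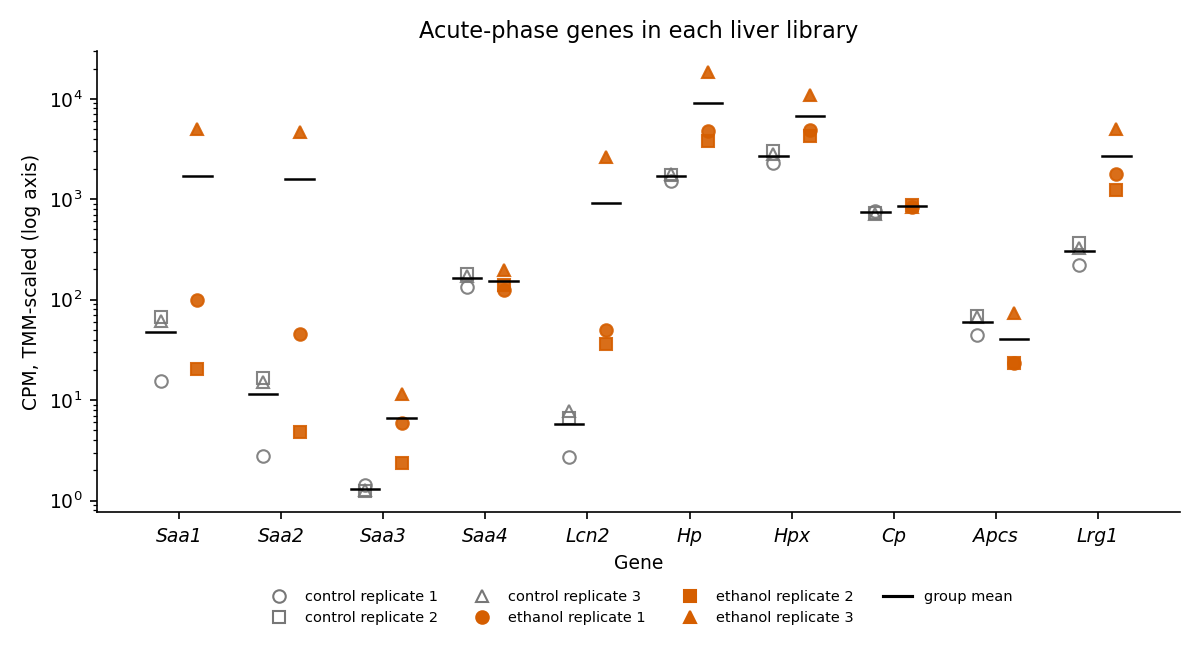
TMM-scaled CPM (log axis) of the 10 acute-phase genes in each of the 6 liver libraries. Open grey symbols are control and filled orange symbols ethanol-exposed mice, with the shape giving the replicate and the bar the group mean of 3. For Saa1, the ethanol-exposed livers spanned 20.3 to 4969 CPM, whereas for Cp they lay between 841 and 871 CPM.

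The deposited table places the SAA genes side by side on chromosome 7, with Saa3 at chr7:46361422-46365124, Saa4 at chr7:46377422-46382027 and Saa1 at chr7:46389921-46392404 on the minus strand and Saa2 at chr7:46401214-46403737 on the plus strand. It places Hpx at chr7:105240820-105249344, Lcn2 at chr2:32274645-32277809, Hp at chr8:110301760-110305804, Lrg1 at chr17:56426678-56429001 and Apcs at chr1:172721528-172722608 on the minus strand, and Cp at chr3:20011218-20061773 on the plus strand. The labels name GRCm38, but only 1.99% of genes had the start and end of a GRCm38 annotation, so the build of these table coordinates is open and they are not comparable with the GRCm38 positions of the promoters. Saa1 and Saa2 are close copies. Their coding sequences in the GRCm38 annotation, 369 bases each, were 95.1% identical, against 76.4% for Saa1 and Saa3 and 67.2% for Saa1 and Saa4. The longest identical run between the coding transcripts of Saa1 and Saa2 was 99 bases, shorter than a read of 150 bases, but how the authors handled reads that match both genes is not stated, so the split between Saa1 and Saa2 is uncertain.

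The promoters of the SAA genes are shown because these 4 neighbouring genes differed from each other in their levels after ethanol. RefSeq promoters (GRCm38.p6) were found for 9 of the 10 genes, Hp having no entry. The stretches run from 250 to 51 bases before the RefSeq start, 5′ to 3′ on the gene's strand, at chr7:46743031-46743230 (minus strand) for Saa1, chr7:46751583-46751782 (plus strand) for Saa2, chr7:46715727-46715926 (minus strand) for Saa3 and chr7:46732654-46732853 (minus strand) for Saa4, with no annotated exon inside them. Capitals mark matches, on either strand, to the C/EBP half-site pair TTNNGNAA.
Saa1: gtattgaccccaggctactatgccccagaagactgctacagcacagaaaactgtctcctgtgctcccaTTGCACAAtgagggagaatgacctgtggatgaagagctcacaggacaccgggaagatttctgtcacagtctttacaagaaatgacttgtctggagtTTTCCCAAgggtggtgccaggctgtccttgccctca
Saa2: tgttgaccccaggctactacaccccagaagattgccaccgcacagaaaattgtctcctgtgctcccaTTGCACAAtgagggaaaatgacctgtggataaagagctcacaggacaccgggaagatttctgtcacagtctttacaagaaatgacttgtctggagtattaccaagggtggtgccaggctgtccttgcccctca
Saa3: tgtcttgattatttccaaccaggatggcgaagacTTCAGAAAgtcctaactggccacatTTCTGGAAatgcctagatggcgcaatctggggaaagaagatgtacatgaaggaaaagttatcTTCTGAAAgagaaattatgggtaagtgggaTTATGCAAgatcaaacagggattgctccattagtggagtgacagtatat
Saa4: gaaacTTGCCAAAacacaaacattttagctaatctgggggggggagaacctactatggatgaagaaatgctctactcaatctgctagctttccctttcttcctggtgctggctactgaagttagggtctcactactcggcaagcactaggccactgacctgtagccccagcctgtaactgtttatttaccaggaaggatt

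Over the 250 bases before the start, the Saa1 and Saa2 promoters were 94.8% identical, and Saa1 shared 48.0% of bases with Saa3 and 42.8% with Saa4. Saa1 and Saa2 had a common TTGCACAA match, 182 and 183 bases before the start respectively, and Saa1 had a second match, TTTCCCAA, 86 bases before the start. Saa3 held 4 matches in this window. Saa4 held 2, TTGCCAAA starting 245 bases and TTGAGCAA starting 52 bases before the start, and the latter crosses the end of the printed stretch and is not capitalised there. A C/EBP match was found in 7 of the 9 genes with a promoter entry, Lrg1 and Apcs having 0, and in 36.8% of all 32851 RefSeq promoters of the same length. The NF-kB letters, GGG and CC with any 5 bases between them, were found in 6 of the 9 genes and 45.8% of all promoters, and the STAT letters TTCNNNGAA in 1 of the 9, Apcs, and 7.02% of all promoters. These motifs were searched on both strands, and the matches are descriptions of sequence.

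Saa1 stood at 15.3, 66.9 and 61.0 CPM in control replicates 1, 2 and 3 and at 99.97, 20.3 and 4969 CPM in ethanol replicates 1, 2 and 3. A single ethanol-exposed liver was thus far above all others, ethanol replicate 2 lay within the control range, and the groups overlapped. Ethanol replicate 1 lay above all controls on this scale, but within their range by FPKM (29.3 against 7.32 to 31.8). The log2 fold change was 5.15 ± 1.92 (SE, n = 3 per group), with an edgeR adjusted p of 0.0656. Without ethanol replicate 3 it was 0.34 (edgeR adjusted p = 0.723), and without ethanol replicate 2 Saa1 passed the threshold (edgeR adjusted p = 0.0285).

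Saa2 showed the same distribution, with 2.77, 16.5 and 15.3 CPM in the control livers and 45.8, 4.81 and 4670 CPM in the ethanol-exposed livers. Ethanol replicate 3 was 405-fold above the control mean, against 104-fold for Saa1, and ethanol replicate 2 again lay among the controls. The log2 fold change of 7.09 ± 2.43 (SE) missed the threshold (edgeR adjusted p = 0.0502), and it was 1.14 without ethanol replicate 3 (edgeR adjusted p = 0.334). The call depended on the setting. Saa2 was a DEG with library size alone (edgeR adjusted p = 0.0492), with median ratio scaling (0.0498) and without ethanol replicate 1 (0.0486) or 2 (0.0217). It was not one with any control replicate left out (edgeR adjusted p of 0.133 to 0.150), with no filter (0.0748) or under limma on FPKM (0.302 to 0.439). With the counts of Saa1 and Saa2 added together, the log2 fold change was 5.79 ± 2.09 (SE, edgeR adjusted p = 0.0593).

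Saa3 had the fewest counts of the SAA genes in every library. It stood at 1.43, 1.23 and 1.27 CPM in the control livers and at 5.85, 2.35 and 11.5 CPM in the ethanol-exposed livers. These stand for 94 to 134 counts in the controls and 144 to 626 counts after ethanol. All 3 ethanol-exposed livers lay above all 3 controls. Saa3 was upregulated by 2.32 ± 0.53 (log2, SE, edgeR adjusted p = 0.0117), and by 1.65 without ethanol replicate 3 (edgeR adjusted p = 0.0076). The call was lost, at edgeR adjusted p-values of 0.0501 and 0.0503, without control replicate 2 or 3. It was also lost under limma on FPKM (log2 fold change of 0.74 to 1.26, limma adjusted p of 0.0524 to 0.140). Kupffer cell and macrophage markers, a further source of Saa3, summed to between 132 and 179 CPM in ethanol-exposed and between 157 and 173 CPM in control livers, and 1 of 11 was an upregulated DEG (9.09%, near the 10.4% of all genes). Scaled by library size alone, 0 were upregulated and 4 downregulated DEGs (36.4%, near the 32.2% of all genes). Their part in the Saa3 result was not tested.

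Saa4 differed from its neighbours. It stood at 134, 181 and 173 CPM in the control livers and at 124, 140 and 198 CPM in the ethanol-exposed livers, so the groups overlapped on this scale. By FPKM they did not, with 42.9, 52.0 and 67.8 after ethanol, all below the controls at 75.8, 102 and 97.1. The log2 fold change was -0.08 ± 0.20 (SE, edgeR adjusted p = 0.771). With library size alone it was -0.75 (edgeR adjusted p = 0.0141), close to the median of -0.71 over all genes under that scaling.

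The makeup of the family therefore varied with the liver. Summed FPKM of the 4 genes amounted to 0.0206%, 0.0319% and 0.0295% of total FPKM in the control livers and to 0.0177%, 0.0130% and 0.574% in the ethanol-exposed livers. Ethanol replicates 1 and 2 lay below all 3 controls on this measure, and ethanol replicate 3 lay above them. The position of replicates 1 and 2 turned with the scale. As a share of counts, ethanol replicate 1 (0.0214%) lay within the control range of 0.0194% to 0.0334%, and by summed TMM-scaled CPM it lay above the controls (276 against 154 to 265), with replicate 2 at 167 within them. The means were 0.0273% ± 0.00595 and 0.202% ± 0.323 (SD, n = 3), and the exact permutation test (two-sided) gave p = 1.0, where 0.1 is the smallest p this design allows. With the gene lengths the authors used, Saa4 made up 89.1%, 71.7% and 72.6% of the family's FPKM in the control livers. Its share was 49.3% and 85.9% in ethanol replicates 1 and 2, and 2.39% in ethanol replicate 3. When counts were divided by coding transcript length instead, Saa4 stood above Saa1 in control replicate 1 and ethanol replicate 2 alone. The ratio of Saa1 to Saa2 FPKM was 5.66, 4.12 and 4.05 in the controls, 2.22 and 4.31 in ethanol replicates 1 and 2, and 1.08 in ethanol replicate 3.

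**Figure D2:**
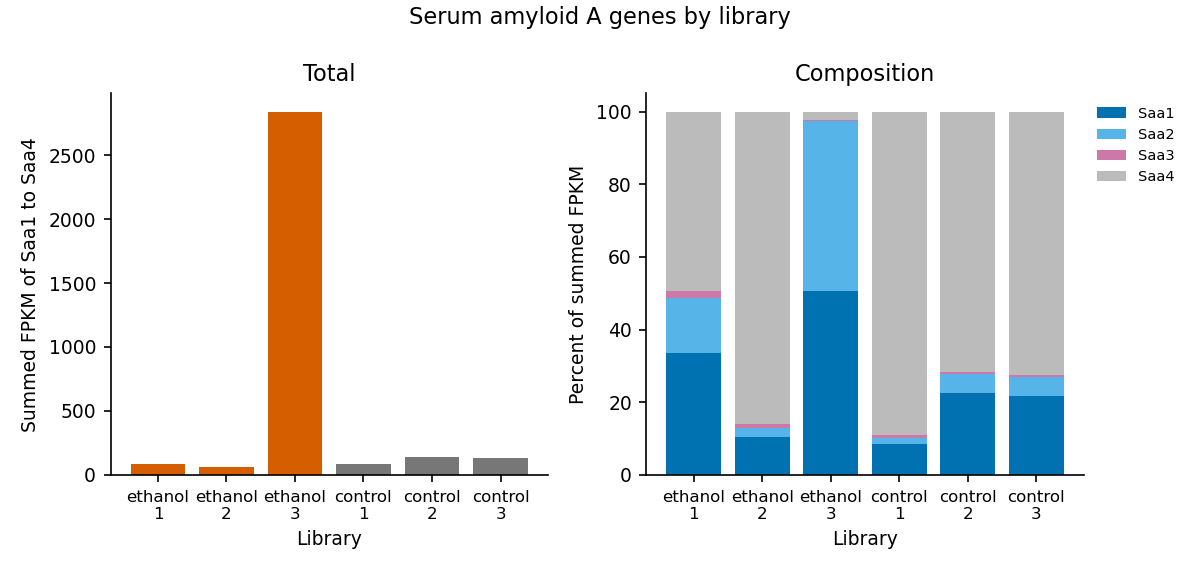
Summed FPKM of Saa1 to Saa4 (left, linear axis) and the percent of that sum from each gene (right) in each library. With the gene lengths the authors used, Saa4 made up 71.7% to 89.1% of the sum in control livers. In ethanol replicate 3 it made up 2.39%, and Saa1 and Saa2 made up 50.7% and 46.8%. When counts were divided by coding transcript length instead, Saa4 stood above Saa1 in control replicate 1 and ethanol replicate 2 alone.

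FPKM levels of these genes depend on the gene length the authors used. Dividing counts by FPKM returned a length of 2652 bases for Saa1, 2700 for Saa2 and 2815 for Lcn2, whereas the coding transcripts in the GRCm38 annotation measured 609 bases for Saa1, 511 to 652 for Saa2 and 908 to 915 for Lcn2. For Saa4, the returned length of 2240 bases was near its coding transcript of 2094 bases, as was that of Lrg1 (1506 against 1408 bases). FPKM of Saa1, Saa2 and Lcn2 is thus low relative to Saa4 and Lrg1 when counted per base of coding transcript. Control replicate 2, for example, held 5100 counts of Saa1 and 13781 of Saa4, so Saa1 stood higher there per base of coding transcript.

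Genes that bind iron, heme or copper were examined next. Lcn2 encodes lipocalin 2, which binds bacterial siderophores and withholds iron from bacteria, and is made by hepatocytes and by neutrophils. It stood at 2.69, 6.59 and 7.87 CPM in the control livers and at 49.6, 36.4 and 2649 CPM in the ethanol-exposed livers. All ethanol-exposed livers lay above all controls, replicates 1 and 2 by 8.68-fold and 6.36-fold over the control mean and replicate 3 by 463-fold. Lcn2 was upregulated by 7.32 ± 1.90 (log2, SE, edgeR adjusted p = 0.0188), and by 2.92 without ethanol replicate 3 (edgeR adjusted p = 0.00067). Leaving out any one control replicate raised the edgeR adjusted p to between 0.0691 and 0.0787. Lcn2 was a DEG under limma on log2(FPKM + 0.1) (limma adjusted p = 0.0466). It was not one under limma on log2(FPKM + 1) (limma adjusted p = 0.0593, and 0.131 with no filter). DESeq2 returned no p-value for Lcn2, Saa1 or Saa2.

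Neutrophil markers were low in all libraries. Of 14 markers listed, 7 passed the filter on low counts, and some of these did so through the ethanol-exposed livers alone, S100a8 being at 0, 0 and 0.0486 CPM in the controls, so no share of the 7 is given. The summed level of the 14 was 1.59 to 2.23 CPM in control livers, 3.68 and 4.30 CPM in ethanol replicates 1 and 2, and 17.7 CPM in ethanol replicate 3. Mpo and Elane were at 0 in all 3 ethanol-exposed livers, Ly6g was at 0 in 2 of them and at 0.165 CPM in replicate 3, and Stfa2l1 was at 0 in all 6 libraries. How many of the 7 were highest in ethanol replicate 3 is not counted either, as the filter could favour that library. The part of neutrophils in the Lcn2 result was not tested.

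Hp encodes haptoglobin, which captures free hemoglobin, and was by FPKM the most abundant of the 10 genes in ethanol replicate 3 (8299 FPKM). Its levels were 1514, 1747 and 1789 CPM in the control livers and 4814, 3789 and 18583 CPM in the ethanol-exposed livers, without overlap. Hp was upregulated by 2.43 ± 0.59 (log2, SE, edgeR adjusted p = 0.0149), and by 1.36 without ethanol replicate 3 (edgeR adjusted p = 0.00018). By FPKM, Hp ranked between 55 and 66 of all genes in the control livers, at 48 and 51 in ethanol replicates 1 and 2 and at 6 in ethanol replicate 3. The call was lost without any one control replicate, at edgeR adjusted p-values of 0.0567 to 0.0638. It was also lost under limma on FPKM (limma adjusted p of 0.0611 to 0.134). The study chose Hp and Lrg1 for its hepatocyte-associated signature with data that include these samples, so their direction here is not independent evidence.

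Hpx encodes hemopexin, which carries free heme to the liver. It stood at 2279, 2987 and 2792 CPM in the control livers and at 4937, 4255 and 10914 CPM in the ethanol-exposed livers, without overlap on this scale. By FPKM the groups overlapped, as ethanol replicate 2 (2216) lay within the control range of 1800 to 2349. Hpx was upregulated by 1.32 ± 0.36 (log2, SE, edgeR adjusted p = 0.0217). Without ethanol replicate 3 the change was 0.78 (edgeR adjusted p = 0.0031), which is below the fold threshold, and with library size alone it was 0.64 (edgeR adjusted p = 0.141). The call was also lost without any one control replicate, at edgeR adjusted p-values of 0.0622 to 0.0840, and under limma on FPKM (limma adjusted p of 0.209 to 0.341).

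Cp encodes ceruloplasmin, the copper-carrying ferroxidase of plasma, and had the smallest SD of log2 CPM of the 10 genes in both groups. The control livers held 762, 735 and 719 CPM and the ethanol-exposed livers 841, 871 and 842 CPM. These did not overlap, and the difference of 0.21 ± 0.10 (log2, SE) missed the threshold (edgeR adjusted p = 0.130). Its direction depended on the scaling: with library size alone the log2 fold change was -0.46 (edgeR adjusted p = 0.0101), and FPKM was 63.1 to 71.1 after ethanol against 88.4 to 94.3 in controls. Cp overlaps Hps3, a gene of the other strand with 278 to 637 counts per library.

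Lrg1 encodes leucine-rich alpha-2-glycoprotein, a plasma glycoprotein that modulates TGF-beta signalling in endothelial cells. It stood at 220, 362 and 325 CPM in the control livers and at 1771, 1229 and 4991 CPM in the ethanol-exposed livers. The groups did not overlap, and the lowest ethanol-exposed liver was 4.07-fold above the control mean. Lrg1 was upregulated by 3.14 ± 0.54 (log2, SE, edgeR adjusted p = 0.0038), and by 2.32 without ethanol replicate 3 (edgeR adjusted p = 0.00018). It remained an upregulated DEG when any one of the 6 libraries was left out, with an edgeR adjusted p of at most 0.0237. Lrg1 overlaps Gm56918, a gene of the other strand with 8293 to 23157 counts after ethanol and 170 to 234 in controls. Counts of Lrg1 itself were 75173 to 272458 after ethanol and 20625 to 27614 in controls. As strand use is not stated, reads of Lrg1 and Gm56918 cannot be told apart where the genes overlap.

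Apcs encodes serum amyloid P component, the pentraxin that takes the place of C-reactive protein as the inducible form in mice. It stood at 44.9, 68.7 and 66.9 CPM in the control livers and at 23.3, 23.6 and 74.1 CPM in the ethanol-exposed livers. Ethanol replicates 1 and 2 lay below all controls and ethanol replicate 3 lay above them on this scale. By FPKM, replicate 3 (54.8) lay within the control range of 54.7 to 83.4. The log2 fold change was -0.58 ± 0.46 (SE, edgeR adjusted p = 0.344). It was -1.35 without ethanol replicate 3 (edgeR adjusted p = 0.00089) and -1.26 with library size alone (edgeR adjusted p = 0.0445), and both of these are downregulated DEGs.

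**Figure D3:**
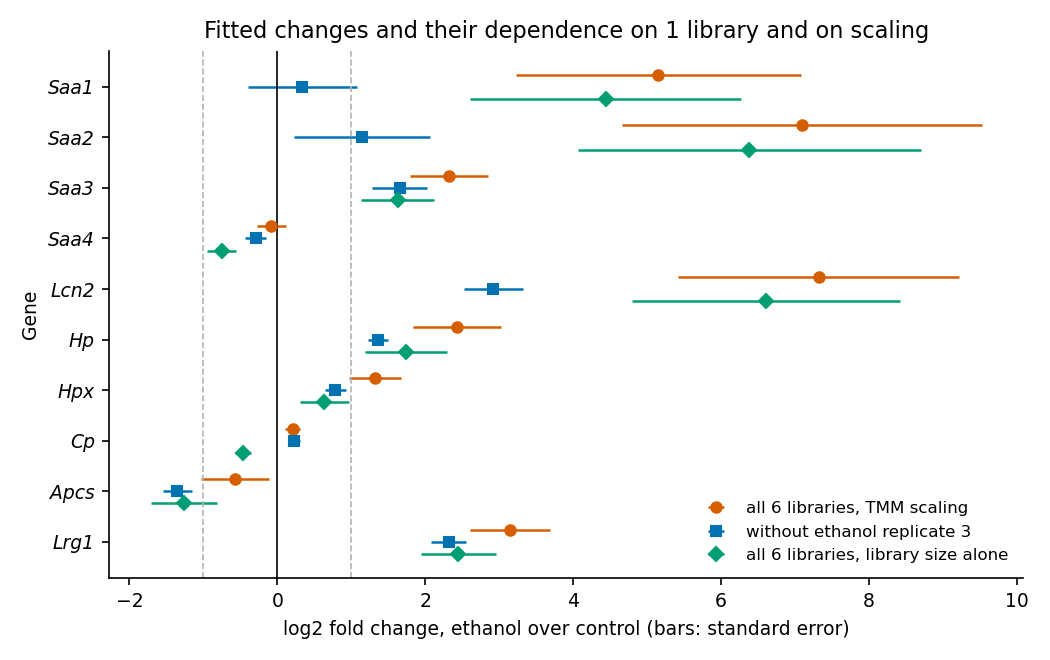
Log2 fold change of ethanol over control for each of the 10 genes, with standard errors as bars and dashed lines at the fold threshold. Orange circles use all 6 libraries with TMM scaling, blue squares leave out ethanol replicate 3, and green diamonds use all 6 libraries with library size alone. Saa1 went from 5.15 to 0.34 without ethanol replicate 3, and Cp changed sign with library size alone.

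The spread among the ethanol-exposed livers was described for each gene as the SD of log2 CPM. It was larger in the ethanol than in the control group for 9 of the 10 genes, Cp being the exception, and for 74.2% of all genes tested. With library size alone or with log2(FPKM + 1) it was larger in the ethanol group for all 10 genes. Ethanol replicate 3 exceeded the mean of ethanol replicates 1 and 2 by 8.29 (log2 CPM) for Saa2, 6.78 for Saa1 and 5.96 for Lcn2. Differences as large were seen in 2, 4 and 6 of the 16717 genes tested, each gene itself included. The difference was 2.12 for Hp, 1.76 for Lrg1, 1.66 for Apcs, 1.62 for Saa3 and 1.25 for Hpx, and it was 0.59 for Saa4 and -0.02 for Cp. In all, 8 of the 10 genes had a difference above 1, against 11.3% of all genes tested. Ethanol replicates 1 and 2 also differed from each other for Saa1 and Saa2, by 2.30 and 3.24 (log2 CPM), with replicate 1 higher.

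The genes with the profile most like Saa1 over the 6 libraries were Sebox, Zc3h13, Fbf1, Serpina3c and Steap4, with a root mean square difference of centred log2 CPM of 1.26 to 1.34 among the 13420 genes compared. Among the other acute-phase genes of the group, Saa2 was nearer to Saa1 than these, at 0.79, and Lcn2 stood at 1.44. Those most like Lcn2 were Sebox, Slc10a6, Fbf1, Armc12 and S100a8, at 1.22 to 1.34. Several of these genes were near the detection limit, Armc12 and Slc10a6 being at 0 in at least 2 control livers.

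Other positive acute-phase genes were then examined, of which 28 of 30 listed were tested, Pla2g2a having no row and Ptx3 failing the filter. Compared with controls, 13 were upregulated DEGs and 1, Crp, was a downregulated DEG, with a median log2 fold change of 1.12. These are 46.4% and 3.57% of the list, against 10.4% and 13.8% of all genes tested. With library size alone the counts were 10 and 2, or 35.7% and 7.14%, against 5.06% and 32.2%. The largest rises were in Orm3 (5.91), an orosomucoid, Hamp (4.66), which encodes the iron hormone hepcidin, Cd14 (4.64), a co-receptor for lipopolysaccharide, Steap4 (3.83), a metalloreductase, and Serpina3n (3.15), a protease inhibitor. The fibrinogen chains Fga, Fgb and Fgg, the most abundant genes of the list, rose by 1.50, 2.15 and 2.30. The signature of the study holds Fgb, Fgg and other members of this list, so the count is not independent evidence of its direction. Crp, the classical human acute-phase pentraxin, fell by 1.46, from 274 to 296 CPM in controls to 97.9 to 107 CPM after ethanol.

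The distribution of these genes among the ethanol-exposed livers was mixed. Ethanol replicate 3 was the highest of the ethanol-exposed livers for 19 of 28 tested genes (67.9%, against 41.1% of all genes tested). It was the highest of all 6 libraries for 18 of them (64.3%, against 21.9%). Serpina3n stood at 772, 520 and 5676 CPM and Steap4 at 154, 123 and 1910 CPM in ethanol replicates 1, 2 and 3, so both were highest in replicate 3. Without ethanol replicate 3, Serpina3n rose by 1.31 and Steap4 by 1.44. Their calls, and that of Fga, were lost without any one control replicate (edgeR adjusted p = 0.0827 to 0.0972 for Serpina3n, 0.0873 to 0.0917 for Steap4 and 0.0901 to 0.0975 for Fga), and Fga was no DEG without ethanol replicate 3 either (0.81). Hamp stood at 1725, 1550 and 1287 CPM, against 50.7 to 70.5 CPM in controls, and Orm3 at 124, 144 and 70.6 CPM, against 1.42 to 2.38 CPM. For both, ethanol replicate 3 was the lowest of the ethanol-exposed livers. Of the list, 12 of 28 tested genes (42.9%) exceeded the mean of replicates 1 and 2 by more than 1 (log2 CPM) in replicate 3, against 11.3% of all genes tested.

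Negative acute-phase genes encode plasma proteins that typically decline in inflammation. Of 10 tested, 4 were upregulated DEGs (Serpina6, Apoa1, Fetub and Rbp4) and 0 downregulated DEGs, or 40.0% and 0% of the list, against 10.4% and 13.8% of all genes tested. The log2 fold changes of the 4 were 1.90, 1.24, 1.17 and 1.13, and the abundant Alb, Ahsg and Trf had values of 0.82, 0.99 and 0.27. With library size alone, 1 of the 10 was called higher and 0 lower (5.06% and 32.2% of all genes tested), the median was 0.28 instead of 0.95, and Trf had a value of -0.40. In ethanol replicate 3 the list stood near the other ethanol-exposed livers, with a summed level of 151430 CPM against 152675 and 149158 CPM.

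Cytokine signalling genes of the interleukin-6, interleukin-1 and TNF pathways were mostly measurable at the level of receptors and transducers. Il6, Tnf, Osm, Il11 and Il1rl1 did not pass the filter, and Il22 had no row. Of 23 tested genes, Il1r2 was at 0 in all controls and passed the filter only through the ethanol-exposed livers. It is left out of the counts of DEGs here. Of the other 22, 8 were upregulated DEGs and 1, the kinase Tyk2, was a downregulated DEG, or 36.4% and 4.55%, against 10.4% and 13.8% of all genes tested. The counts were 4 and 3 with library size alone, or 18.2% and 13.6%, against 5.06% and 32.2% of all genes tested. Il1r1, the signalling receptor of interleukin-1, stood at 26.9 to 36.0 CPM in controls and at 1049, 779 and 1149 CPM after ethanol, a log2 fold change of 4.93. Socs3, the feedback inhibitor of interleukin-6 signalling and a STAT3 target, stood at 3.39 to 6.84 CPM in controls and at 140, 122 and 143 CPM after ethanol, a log2 fold change of 4.60. Stat3 itself rose by 2.03, to 258, 247 and 319 CPM from 63.9 to 71.6 CPM. It overlaps Stat5a, a gene of the other strand with 534 to 639 counts after ethanol and 907 to 1391 in controls. For Il1r1, Socs3 and Stat3, ethanol replicate 3 was the highest of the ethanol-exposed livers. Ethanol replicate 3 was the highest of them for 15 of the 23 genes, Il1r2 included, and for 41.1% of all genes tested. It exceeded the mean of replicates 1 and 2 by more than 1 (log2 CPM) for 3 of the 23 (13.0%, Il1r2 included), near the 11.3% of all genes tested. Tnfrsf1b rose by 2.53, and Il1r2, the decoy receptor of interleukin-1, stood at 0.556 to 1.26 CPM after ethanol, so no fold is given. Lifr, which is abundant, had a log2 fold change of 0.23 that turned to -0.44 with library size alone.

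Among 22 tested transcription factors and inhibitors of NF-kB, 8 were upregulated and 2 downregulated DEGs. They make up 36.4% and 9.09% of the list, against 10.4% and 13.8% of all genes tested. Scaling by library size alone gave 4 and 5, or 18.2% and 22.7%, against 5.06% and 32.2% of all genes tested. Cebpb and Cebpd, the C/EBP factors of the acute-phase response, rose by 3.30 and 4.07. Cebpb stood at 775, 773 and 577 CPM after ethanol against 65.0 to 77.7 CPM in controls, and Cebpd at 92.0, 92.2 and 59.1 CPM against 4.63 to 5.13 CPM. Both were lowest in ethanol replicate 3 among the ethanol-exposed livers. Both also overlap a gene of the other strand, and strand use is not stated. For Cebpb it is Peds1, with 2462 to 3443 counts after ethanol and 639 to 831 in controls. For Cebpd it is Spidr, with 52 to 100 counts after ethanol and 265 to 329 in controls. The NF-kB inhibitors Nfkbiz, Nfkbib and Nfkbia rose by 3.29, 1.77 and 1.61, and Hnf4a and Creb3l3, hepatocyte factors, had values of 0.69 and 0.74, below the fold threshold. The list exceeded the mean of replicates 1 and 2 by more than 1 (log2 CPM) in replicate 3 for 1 of 22 genes (4.55%, against 11.3% of all genes tested).

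**Figure D4:**
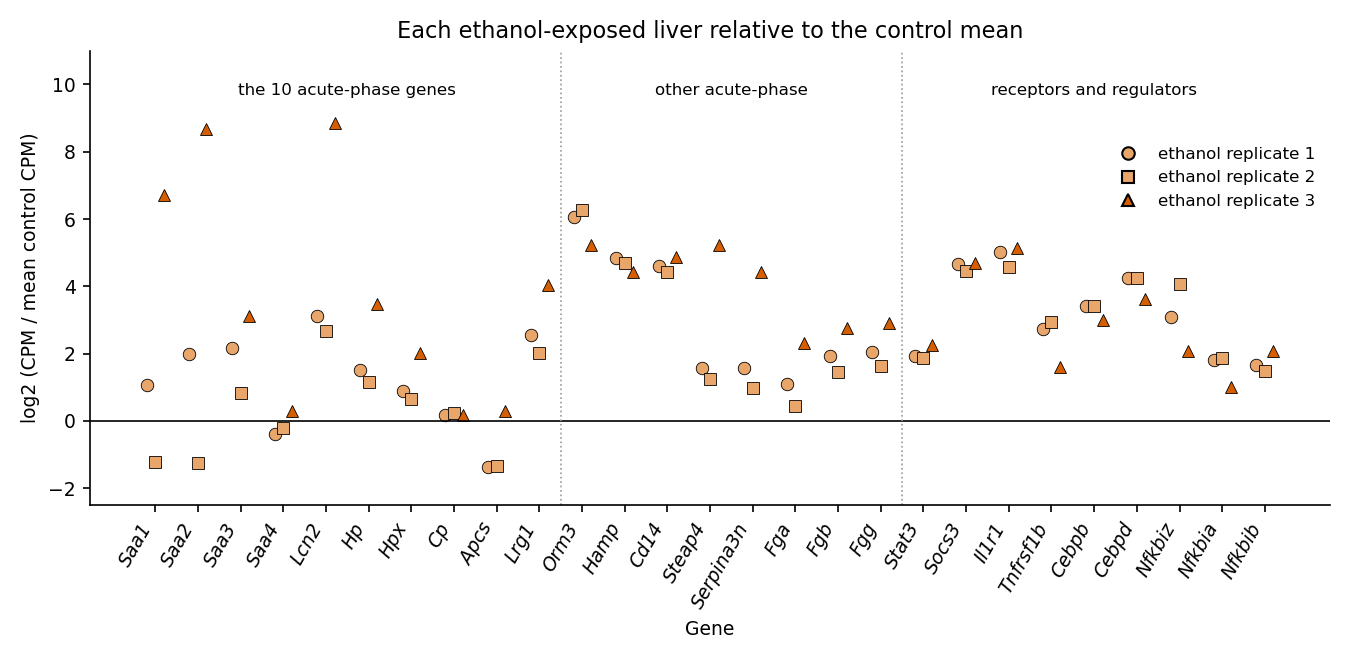
Log2 ratio of CPM in each ethanol-exposed liver to the mean of the 3 controls, for the 10 genes, other acute-phase genes, and receptors and regulators. Genes beyond the 10 are upregulated DEGs that the text names from the positive acute-phase, cytokine signalling and transcription factor lists. All of them were detected in controls. Downregulated DEGs such as Crp, the negative acute-phase genes and the list of receptors and handling proteins are not shown. Ethanol replicate 3 stood 405-fold above the control mean for Saa2, and for Socs3 the 3 livers lay between 122 and 143 CPM.

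Of 30 tested receptors and handling proteins for these ligands, 4 were upregulated and 3 downregulated DEGs, and the 13.3% upregulated was near the 10.4% over all genes tested, as 3 of 30 was near 13.8%. Scaling by library size alone gave 1 and 10, or 3.33% and 33.3%, near the shares of 5.06% and 32.2% over all genes. These counts are therefore no result about the list. Ager, a receptor that binds SAA, rose by 4.66 from a low level (0.0852 to 0.184 CPM in controls and 2.35 to 4.10 CPM after ethanol). Hmox1, which degrades heme, rose by 1.68 and stood at 18.5, 17.2 and 42.9 CPM after ethanol against 7.73 to 8.91 CPM. Tgfbr2 rose by 1.62. Slc40a1, the iron exporter ferroportin, fell by 1.52, and the Fc receptor Fcgr1 fell by 1.18, a call lost without any one control replicate (edgeR adjusted p = 0.0625 to 0.147). The ferritin chains Fth1 and Ftl1 had values of 0.72 and 0.60, Ftl1 turning to -0.07 with library size alone. Lrp1, the receptor of hemopexin-bound heme, had a value of -0.34. With library size alone Lrp1 was a downregulated DEG (-1.02, edgeR adjusted p = 0.0072), and under limma on FPKM as well (-1.02 to -1.07). Transcripts of hemoglobin, the ligand of haptoglobin, were also higher, with 4 of 5 tested erythroid markers upregulated (against 10.4% of all genes), also 4 of 5 scaled by library size alone (against 5.06%), and summed levels of 579 to 863 CPM after ethanol against 180 to 220 CPM in controls. They were highest in ethanol replicate 1, and their part in the Hp result was not tested.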

How the data were processed

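Liver RNA libraries, 3 from acute ethanol-exposed and 3 from control mice, were analysed. Sequencing was paired-end with reads of 150 bases. For each gene the authors deposited raw counts of reads and an FPKM value. Adaptor and low-quality reads had been removed. The labels name GRCm38 (mm10), and the aligner, counter and strand use are not given in the sources used here. A column of counts matching no sample (1) was not used.

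Counts were filtered by filterByExpr, scaled by TMM and tested by edgeR 4.0.16 (quasi-likelihood, no covariates, R 4.3.3) with Benjamini-Hochberg adjustment over 16717 genes. DEGs had an adjusted p below 0.05 and a log2 fold change beyond 1. Each SE was derived from the test, as the absolute log2 fold change divided by the square root of the quasi-likelihood F statistic. The SAA share was tested by an exact permutation test. In simulated data edgeR recovered 66.0% of 4-fold and 18.8% of 2-fold changes among 16501 genes, with 3 false calls of 83. Recovery there meant an adjusted p below 0.05, without the fold threshold of a DEG. Only 94 tested genes with 4-fold and 96 with 2-fold changes were simulated, whereas 24.2% of genes tested were DEGs in the data. These shares therefore need not hold for the DEGs reported here. Depth left counting error small, so 3 libraries per group limit the precision.

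Members and lists were chosen with earlier results of these data known. All members are described. Of every other list (other and negative acute-phase, cytokine signalling, transcription factor and receptor genes) the text names up to 5 DEGs of largest change and the 3 most abundant genes. Others named are counted exceptions, chosen after their values were seen. Markers of hepatocytes, neutrophils, Kupffer cells, monocytes, cholangiocytes, endothelial, stellate, adipocyte and erythroid cells were summed. Profile likeness used log2 CPM with a prior count of 2. Alternatives were other scalings, DESeq2 1.42.0, limma 3.58.1 on log2(FPKM + 1) or log2(FPKM + 0.1), no filter, no fold threshold, a replicate block and each library left out. Libraries of a group differed by more than counting noise (chi-square over degrees of freedom, 54.4 to 521), and none was counted as a duplicate.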

Additional observations from a re-analysis of the deposited data

How the results depend on the processing

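Of the values for the 10 genes under the alternatives, 130 kept their direction and their side of the threshold, 24 fell below it, 9 rose above it and 6 changed sign. Saa4 changed sign to 0.0014 without control replicate 2 and to 0.050 without ethanol replicate 1, with a range of -0.29 to 0.050 when a library was left out. With library size alone, limma on log2(FPKM + 1), on log2(FPKM + 0.1) and on log2(FPKM + 1) with no filter, in that order, Cp turned to -0.46, -0.46, -0.47 and -0.46, Trf to -0.40, -0.41, -0.41 and -0.41, Lifr to -0.44, -0.47, -0.50 and -0.47, and Ftl1 to -0.073, -0.075, -0.075 and -0.075. Upregulated members numbered 5, and 1, 2 and 1 under the 3 limma settings and 1 to 7 with a library left out. Downregulated members numbered 0, and 1 with library size alone and with limma on log2(FPKM + 1) and log2(FPKM + 0.1), and 0 to 1 with a library left out. Upregulated DEGs over all genes numbered 1738, and 846 with library size alone, 408, 752 and 379 under limma, and 3598 with no fold threshold, and downregulated DEGs 2301, and 5383 with library size alone, 4965 with limma on log2(FPKM + 0.1) and 3591 with no fold threshold. For positive and negative acute-phase genes together, 17 upregulated DEGs became 11 with library size alone, 9, 9 and 8 under limma and 28 with no fold threshold, and 1 downregulated DEG became 2 with library size alone and 1 to 2 with a library left out. For signalling, transcription factor and receptor genes together, here with Il1r2 included, upregulated DEGs numbered 21. They became 10 with library size alone, 7, 10 and 7 under limma and 34 with no fold threshold. Downregulated DEGs numbered 6, and 18 with library size alone, 3 with the trend with transcript length removed and 15 with limma on log2(FPKM + 0.1). With a library left out, downregulated DEGs numbered 3 (without control replicate 1) to 9 (without ethanol replicate 3). Causes were not tested.

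The difference in SAA share of FPKM, 0.174 percentage points, ran from -0.012 (without ethanol replicate 3) to 0.269 with a library left out. Samples sharing a number in the labels did not deviate together (correlations of -0.03, -0.02 and -0.02). With the replicate block, Saa1 and Saa2 had log2 fold changes of 2.59 and 3.89 (edgeR adjusted p = 0.319 and 0.269). Lcn2 and Lrg1 had 4.78 and 2.91 (edgeR adjusted p = 0.0384 and 0.0083), and 5 of the 10 genes were upregulated DEGs. Under limma on log2(FPKM + 1), the log2 fold changes of Saa1, Saa2 and Lcn2 were 1.77, 2.72 and 3.88. The design of 3 libraries per group, an unstated control regimen and unstated strand use limit all values.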

Other observations

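Other cell type markers were measured in the same livers. Of 5 adipocyte markers 1 was tested, Cidec, a lipid droplet gene that fatty hepatocytes also express, and it stood at 39.9 to 100 CPM after ethanol against 0.692 to 1.44 CPM in controls. The other 4 (Adipoq, Lep, Plin1 and Retn) failed the filter and stood at 0 to 0.0521 CPM after ethanol and at 0 to 0.236 CPM in controls. Cidec was lowest of the ethanol-exposed livers in replicate 3, the liver with the highest Saa1. Summed monocyte markers were 24.7 to 31.6 CPM after ethanol and 26.4 to 35.9 CPM in controls, cholangiocyte markers 73.4 to 87.7 and 48.7 to 88.9 CPM, and stellate cell markers 126 to 158 and 119 to 169 CPM. These ranges overlapped between the groups, though a sum can hide changes in single genes. Of 8 stellate markers, 0 were upregulated and 2 downregulated DEGs (25.0%, against 13.8% of all genes tested). With library size alone 4 were downregulated (50.0%, against 32.2%). Of 7 tested cholangiocyte markers, 1 was upregulated (14.3%, near 10.4%) and 0 downregulated. Without Ccr2, near the detection limit, 1 of 5 monocyte markers was upregulated (20.0%, against 10.4%) and 0 downregulated. Endothelial markers summed to 88.5, 119 and 157 CPM in ethanol replicates 1, 2 and 3 and to 87.7 to 99.96 CPM in controls, and were highest in ethanol replicate 3. Of 7 such markers, 2 were upregulated and 1 downregulated (28.6% and 14.3%, against 10.4% and 13.8% of all genes tested). With library size alone these were 1 and 3 (14.3% and 42.9%, against 5.06% and 32.2%).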
